A study of Homo sapiens with 6 samples.

Results

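The J-domain co-chaperones are the genes whose symbols start with DNAJ, and the deposited table held 46 such rows among 19475 gene symbols. By the next letter they fell into 4 DNAJA, 13 DNAJB and 29 DNAJC genes, one of the last being the read-through transcript DNAJC25-GNG10. Expression was measured by RNA sequencing after removal of ribosomal RNA in MH7A cells, a single established line of synovial fibroblasts from a patient with rheumatoid arthritis that is immortalised with a viral large T antigen. Every one of the 6 cell samples had TNFα (10 ng/ml). The TNF group (replicates 2, 8 and 14) had the cytokine alone, and the LED group (replicates 4, 6 and 10) was also exposed to 630 nm red light from an LED for 15 min, 3 times. Where 3 values are given for a group they follow that order. No group without TNFα, with light alone or with sham exposure is analysed here, so the comparison gives the difference with LED exposure in TNFα-treated cells. The labels do not say that the libraries of a group are separate cultures, so p-values measure the spread between these libraries, which may be technical.

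A J-domain protein carries a short helical domain that makes an HSP70 chaperone hydrolyse ATP and clamp onto an unfolded client. DNAJA and DNAJB proteins keep the architecture of the bacterial DnaJ in full or in part and mostly serve general folding in the cytosol and nucleus, while DNAJC proteins share little beyond the J domain and bring HSP70 to particular tasks such as clathrin uncoating, protein import, splicing or endoplasmic reticulum (ER) quality control. Some members, DNAJB1 above all, are classical targets of the heat shock factor HSF1, which binds inverted repeats of GAA called heat shock elements, and others, such as DNAJB9, belong to the unfolded protein response of the ER.

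Of the 46 genes, 41 had one or more start sites in the RefSeq promoter table (GRCh38.p14, 250 bases before to 50 after each start, 53 windows). The stretches shown here hold heat shock element letters found near starts of members that the results turn on. Capitals mark GAANNTTC or TTCNNGAA (pairs of units; each is its own reverse complement, so both strands are covered, and neighbouring pairs may overlap), positions count from 1 at the start and from -1 just before it, and each line reads 5′ to 3′ on the gene's strand. The DNAJB1 stretch is chr19:14518418-14518497 (minus strand, positions -100 to -21 of the second of its 3 listed starts), that of DNAJA4 chr15:78264452-78264531 (plus strand, -110 to -31, second of 3 starts), that of DNAJB4 chr1:78004819-78004869 (plus strand, -120 to -70, second of 2 starts) and that of DNAJB6 chr7:157336854-157336904 (plus strand, -150 to -100). That of DNAJA1 is chr9:33025273-33025292 (plus strand, positions 1 to 20, thus inside the transcript). Not shown are an upstream DNAJA1 pair, GAAGATTC at -198 to -191, and GAAGCTTC at 2 to 9 of the third DNAJB1 start. The other listed starts of DNAJA4 and DNAJB4 had no pair in their windows.
DNAJB1: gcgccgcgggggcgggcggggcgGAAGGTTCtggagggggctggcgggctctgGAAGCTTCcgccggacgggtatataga
DNAJA4: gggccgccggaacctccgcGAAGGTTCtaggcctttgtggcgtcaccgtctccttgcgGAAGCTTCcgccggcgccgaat
DNAJB4: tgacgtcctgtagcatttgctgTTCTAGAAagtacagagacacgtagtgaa
DNAJB6: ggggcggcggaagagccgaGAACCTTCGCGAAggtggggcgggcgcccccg
DNAJA1: gcgGAACTTTCCAGAAcgct

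The DNAJB1 and DNAJA4 stretches held the same pair of 8-base words, GAAGGTTC and GAAGCTTC, starting at -77 and -47 for DNAJB1 and at -91 and -52 for DNAJA4. DNAJA1 and DNAJB6 each held a 3-unit element (GAA, 2 bases, TTC, 2 bases, GAA, searched with its reverse complement), at positions 4 to 16 and -131 to -119. Among the members described below as higher with LED, DNAJA4, DNAJA1, DNAJB1 and DNAJB4 had a pair of units in a window, DNAJB9 and DNAJB2 had none, and DNAJC24 is not in the promoter table. Among the other 35 members with a window, 4 held a pair (DNAJB6, DNAJB7, DNAJC6 and DNAJC15). Over all 27305 RefSeq genes with a window of this length, 16.2% held a pair and 0.608% a 3-unit element. The ER stress element, CCAAT, 9 bases and CCACG on either strand, was in no DNAJ window and in 0.0769% of all windows. A match describes letters only, and its absence concerns these windows alone.

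Transcripts of 7 J-domain genes were higher with LED, and those of 1 were lower, at an adjusted p below 0.05 in edgeR's quasi-likelihood test over all genes. The 7 were the cytosolic DNAJA4, DNAJA1, DNAJB1, DNAJB4 and DNAJB2, the ER-resident DNAJB9 and the diphthamide synthesis factor DNAJC24, and the gene that fell was DNAJC9, a co-chaperone for histones. Of the 46 members, 41 passed the filter on low counts. Among these, 17.1% were called higher, where the whole table had 336 of 13794 tested genes higher (2.44%), 377 lower (2.73%) and 5.17% in either direction. DNAJA4 passed the filter through its LED libraries, so it had to differ, and 6 of the higher calls are of other members. The LED libraries all lay above the TNF libraries for 15 members, against 16.2% of all tested genes, and all below for 4 members, against 16.2% as well, so that the groups overlapped for the other 22 (32.4% of all tested genes had no overlap). The median log2 fold change was 0.13 over the tested members and 0.009 over all tested genes. By class, 2 of 4 DNAJA, 4 of 10 tested DNAJB and 1 of 27 tested DNAJC genes rose, with medians of 0.94, 0.73 and -0.003. The gene that fell was a DNAJC. Both the DNAJA count and the DNAJA median include DNAJA4, so they do not show that this class moved most. Its other members, DNAJA1, DNAJA2 and DNAJA3, had log2 fold changes of 1.59, 0.29 and 0.18, and DNAJA1 alone of them was called.

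**Figure D1:**
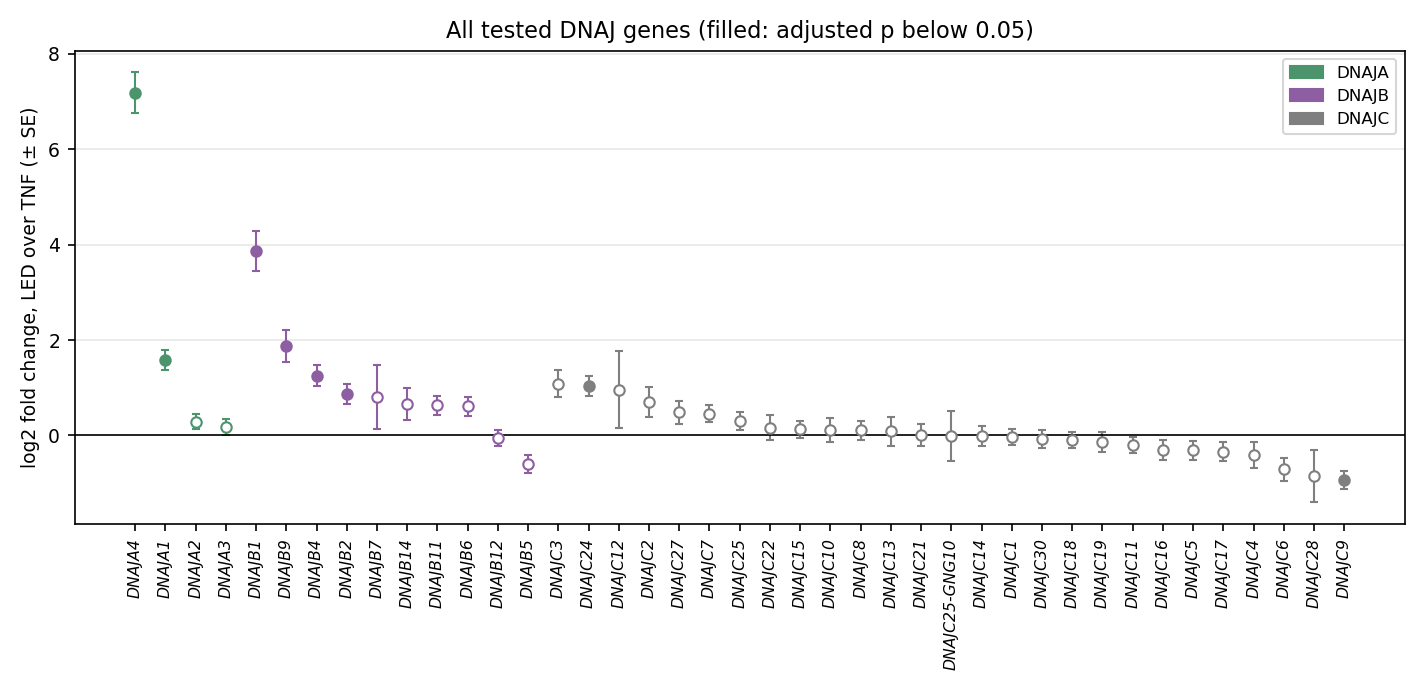
Log2 fold change of LED over TNF (± SE) for the 41 tested DNAJ genes, sorted within class, with filled points for genes past the test. DNAJA4 (7.18) and DNAJB1 (3.86) stand at the top, and most DNAJC genes lie near 0.

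Deposited totals were 86000253 to 108074289 units per library. A sequenced fragment seems to be worth about 4 units, which gives about 21500063 to 27018572 fragments, and 3 fragments equal 0.108 to 0.138 CPM (counts per 1000000, scaled by the trimmed mean of M values), the limit that a count of 0 allows, for counting error only. The fibroblast markers COL1A1, COL1A2, COL3A1, COL6A1, VIM, FN1, THY1, PDPN, PDGFRA, PDGFRB and CDH11 were expressed, none of these 11 was called, and the lining marker PRG4 was at 0 to 0.0787 CPM. The 12 fibroblast markers summed to 40449 to 43474 CPM in the TNF and 35474 to 38550 in the LED libraries, and the part of this difference in the results was not tested. Of 6 leukocyte markers CD3E and MS4A1 were at 0 in every library and PTPRC was at 0 in 5 of 6; the leukocyte sum (92.8 to 138 against 114 to 154 CPM) was nearly all CD68, which fibroblasts also express. Endothelial CDH5 was at 0, and 3 endothelial markers summed to 0.369 to 1.22 against 1.44 to 1.93 CPM, while 4 epithelial ones, mostly KRT18, summed to 34.3 to 41.1 against 37.2 to 55.6. Within their groups TNF replicate 8 and LED replicate 6 stood apart: the first was the highest or the lowest TNF library for 44.0% and 42.5% of tested genes, and the second was so among the LED libraries for 40.8% and 42.1%. In bulk libraries, fewer cells carrying a transcript and less of it per cell cannot be told apart.

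DNAJB1, the HSP40 that works with the inducible HSP70, had 111, 122 and 80.1 CPM with TNF. With LED it had 1485, 2368 and 691 CPM. Its lowest LED library was thus far above its highest TNF library, yet the LED libraries differed among themselves by 3.43-fold between replicates 6 and 10. The group means were 104 ± 21.6 and 1514 ± 839 CPM (SD, n = 3 each), a log2 fold change of 3.86 ± 0.42 (SE, edgeR adjusted p = 0.00342). The call held in each of the 6 omissions of a single library (adjusted p at most 0.0228). Without both TNF replicate 8 and LED replicate 6, it was just missed (0.0521). TECR overlaps 5.7% of the DNAJB1 exon length on the opposite strand and had a log2 fold change of 0.23 (adjusted p = 0.591).

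DNAJA1, a farnesylated cytosolic DNAJA protein of general folding and protein import, had 424, 448 and 510 CPM with TNF and 1341, 1733 and 1088 with LED. Its groups were well apart, with the same order of LED libraries as for DNAJB1 but a smaller spread. The log2 fold change was 1.59 ± 0.21 (461 ± 44.5 to 1387 ± 325 CPM, SD, n = 3, edgeR adjusted p = 0.00748), and it was called without any 1 library (at most 0.0342). Its close relative DNAJA2 had 80.7, 91.4 and 83.8 CPM with TNF and 101, 113 and 97.8 with LED. Those groups did not overlap either, but at 0.29 ± 0.16 on the log2 scale DNAJA2 did not pass (adjusted p = 0.322). The mitochondrial DNAJA3, which serves HSPA9 in the matrix, had 53.6, 65.6 and 55.2 against 64.9, 68.4 and 64.0 CPM, with overlapping groups (log2 0.18 ± 0.16, edgeR adjusted p = 0.569).

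DNAJA4, the remaining DNAJA protein of the cytosol, was near the detection limit with TNF alone. Its deposited counts were 27, 6 and 8 units with TNF (0.242, 0.0591 and 0.0923 CPM), the last 2 under the limit of 12 units, and 2012, 2082 and 1858 units with LED. At 19.0, 20.7 and 19.3 CPM the LED libraries were nearly level, with a coefficient of variation of 4.64%, against 55.4% for DNAJB1. Pooled over each group, about 1488 fragments stood against about 10, a ratio of 147 with an exact 95% interval of 79.8 to 308 that covers counting error only. The fitted log2 fold change was 7.18 ± 0.43 (edgeR adjusted p = 0.000381), and 8.00 without TNF replicate 2, which held 27 of the 41 units of its group. Since the gene entered the test through its LED libraries, these fitted values are a description and not support for a difference. No other member was so near silent in one group and clearly expressed in the other.

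**Figure D2:**
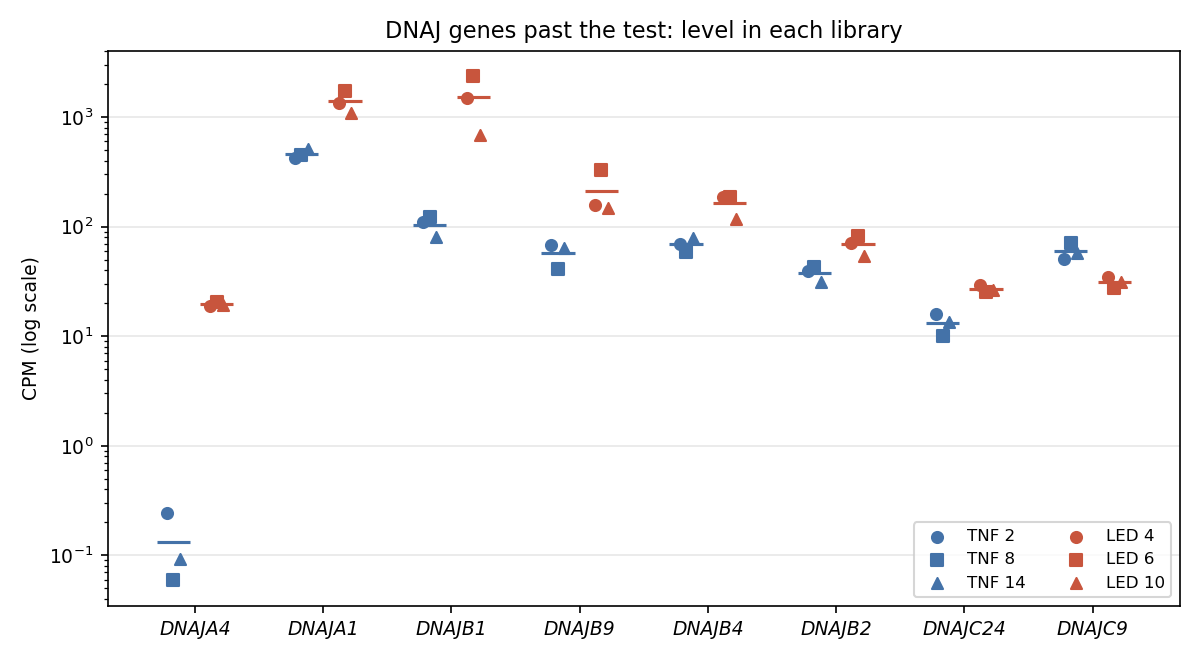
CPM on a log scale for the 8 DNAJ genes past the test, 1 point per library (blue TNF, red LED) with a line at each group mean. Groups are apart for all 8, and the LED points of DNAJB1 spread most widely, from 691 to 2368.

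DNAJB4, a cytosolic relative of DNAJB1, had 68.7, 58.9 and 78.8 CPM with TNF and 186, 187 and 118 with LED. LED replicate 10 was again the lowest of its group. The log2 fold change was 1.25 ± 0.22 (edgeR adjusted p = 0.0207), and 3 single omissions (TNF replicate 14 and LED replicates 4 and 6) ended the call (up to 0.101), as did leaving out both TNF replicate 8 and LED replicate 6. DNAJB2, which carries ubiquitin-interacting motifs and steers clients to the proteasome, had 39.2, 42.5 and 31.1 CPM with TNF and 71.1, 81.5 and 54.1 with LED. It passed narrowly (log2 0.87 ± 0.21, edgeR adjusted p = 0.0464) and lost its call in all 6 single omissions (0.0529 to 0.163) and with library totals as the only scaling (0.0520). Exons of GIPC2 overlap 2.1% of the DNAJB4 exon length on the same strand. GIPC2 had a log2 fold change of 1.40, in the same direction as DNAJB4, and did not pass (edgeR adjusted p = 0.351).

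DNAJB6, a suppressor of protein aggregation and the member with a 3-unit element upstream of its start, had 147, 217 and 156 CPM with TNF. With LED it had 268, 273 and 252 CPM, so that all LED libraries lay above TNF replicate 8, which was itself the high one of its group. It did not pass (log2 0.61 ± 0.19, edgeR adjusted p = 0.0982), and passed without TNF replicate 8 (0.0279) and with DESeq2 (0.0376). DNAJB5 had 19.0, 28.9 and 24.0 CPM against 16.2, 15.7 and 15.6, with all LED libraries below the TNF ones, and did not pass (log2 -0.60 ± 0.19, edgeR adjusted p = 0.106). DNAJC7, which links HSP70 and HSP90 through tetratricopeptide repeats, had 91.5 to 117 CPM with TNF and 130 to 155 with LED and did not pass (log2 0.46 ± 0.17, adjusted p = 0.147). In all, 5 of the 12 tested members listed as cytosolic and nuclear co-chaperones rose and none fell (median 0.84), where 2.44% of all tested genes rose. That list includes DNAJC14, a protein of the ER membrane. Its count and median also include DNAJA4, which entered the test through its LED libraries. DNAJB7, DNAJC12 and DNAJC14 did not pass either, and DNAJC14 was near 0 (40.5, 55.0 and 44.0 against 51.4, 35.5 and 51.3 CPM, log2 -0.014 ± 0.21).

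Within one library the ratio of 2 members does not depend on scaling. DNAJB1 counts were 0.261, 0.272 and 0.157 of DNAJA1 counts with TNF and 1.11, 1.37 and 0.635 with LED. The geometric mean of this ratio was 4.42-fold higher with LED and the groups did not overlap. An exact permutation test on the log2 ratios gave p = 0.1 (two-sided), the smallest that 3 against 3 can give. DNAJB1 over DNAJB4 was 1.02 to 2.07 with TNF and 5.86 to 12.6 with LED. DNAJA1 over DNAJA2 was 4.91 to 6.09 against 11.1 to 15.3, and DNAJB9 over DNAJB11 was 0.341 to 0.576 against 0.873 to 1.35. These 4 ratios were chosen after the values were seen, and all 4 have the same exact p of 0.1, also after adjustment.

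Together DNAJA1 and DNAJB1 made up 19.6% to 21.8% of the family's counts in the TNF libraries and 51.0%, 56.6% and 41.1% of them with LED. The family summed to 2730, 2611 and 2779 CPM with TNF and to 5538, 7245 and 4335 in the LED libraries. The other 44 genes summed to 2040 to 2196 with TNF and to 2555 to 3145 with LED, so that most of the added counts came from that pair. Per kilobase of merged exon length in GENCODE release 29, DNAJA1 was the most abundant member in both groups (169 ± 16.3 and 508 ± 119 CPM per kb, SD, n = 3). Next with TNF were the spliceosome component DNAJC8 (58.6 ± 7.01), the vesicle protein DNAJC5 (32.2 ± 6.47) and DNAJB1 (28.4 ± 5.88), and DNAJC5 and DNAJB1 lay within their spread of each other. With LED, DNAJB1 (412 ± 228), DNAJB9 (74.2 ± 35.6) and DNAJC8 (63.0 ± 12.9) followed DNAJA1, again with overlapping spreads between DNAJA1 and DNAJB1 and between DNAJB9 and DNAJC8.

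**Figure D3:**
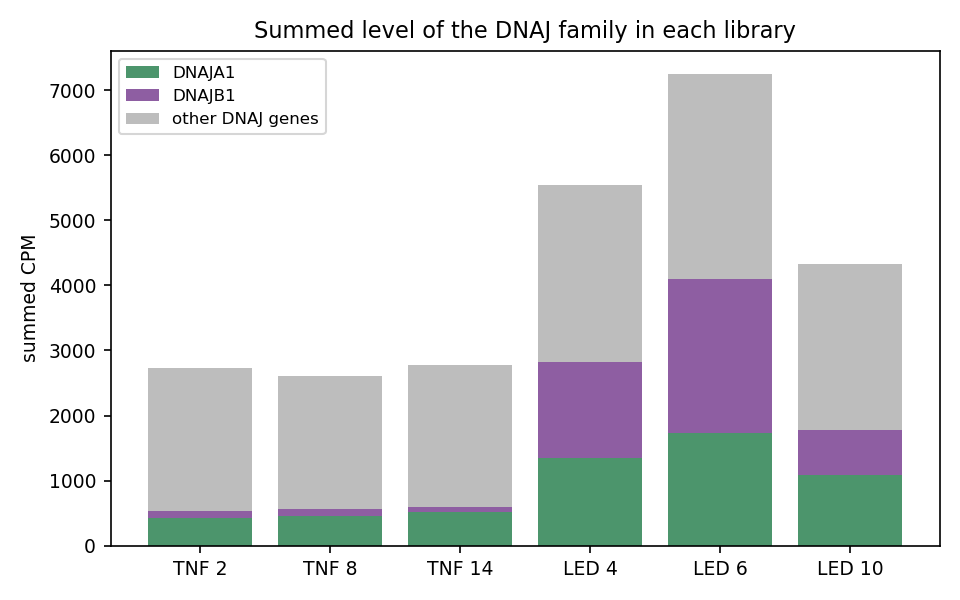
Summed CPM of the 46 DNAJ genes in each library, split into DNAJA1, DNAJB1 and the other 44. The sum lies between 2611 and 2779 with TNF and between 4335 and 7245 with LED, and DNAJA1 and DNAJB1 take most of the difference.

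J-domain proteins of the ER lumen hand clients to the ER HSP70, HSPA5. DNAJB9, which helps to clear misfolded proteins from the ER and restrains the sensor IRE1, had 67.5, 40.9 and 64.1 CPM with TNF and 156, 327 and 148 with LED. LED replicate 6 was more than double the other LED libraries (2.21-fold over replicate 10), and TNF replicate 8 was the low one of its group. The log2 fold change of 1.87 ± 0.33 (edgeR adjusted p = 0.0215) was 1.40 without LED replicate 6. Without both that library and TNF replicate 8 it was 1.21, and the call held (edgeR adjusted p = 0.00163). Leaving out LED replicate 6, TNF replicate 8 or TNF replicate 14 alone ended the DNAJB9 call (up to 0.0655). THAP5 overlaps 6.5% of its exon length on the opposite strand (log2 0.028, adjusted p = 0.970). DNAJC3, an ER co-chaperone that also inhibits the kinase PERK, had 139, 79.7 and 131 CPM against 203, 344 and 194. Those groups did not overlap, with the same high and low libraries, and DNAJC3 just missed the threshold (log2 1.08 ± 0.28, edgeR adjusted p = 0.0600), while DESeq2 (0.00235) and a fit with no filter on low counts (0.0479) called it. Without both TNF replicate 8 and LED replicate 6 its log2 fold change was 0.56 (0.0126).

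DNAJB11, the abundant soluble ER co-chaperone, had 117 to 133 CPM with TNF and 179, 241 and 153 with LED, without overlap and without passing (log2 0.63 ± 0.20, adjusted p = 0.101 with edgeR and 0.0374 with DESeq2). DNAJC25 had 14.6 to 21.5 against 21.9 to 23.5 CPM. The ER reductase DNAJC10, DNAJC1 and DNAJC16 overlapped between the groups (log2 0.11, -0.031 and -0.31). Among 7 ER-lumen members DNAJB9 was the 1 that rose, and none fell (median 0.30), where 2.44% of all tested genes rose and 2.73% fell. None of the 3 members listed as ER membrane proteins that face the cytosol was called, against 5.17% of all tested genes in either direction. DNAJB12 had 53.2, 67.4 and 52.4 against 55.3, 57.5 and 53.4 CPM (log2 -0.057 ± 0.17), and DNAJB14 had 59.8, 25.2 and 22.6 against 51.8, 61.7 and 56.1, where TNF replicate 2 matched the LED libraries and its omission gave an adjusted p of 0.0185.

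Of 6 members tied to RNA, ribosomes and chromatin, 1 rose, 1 fell and 4 did not pass (median 0.059). Over all tested genes, 2.44% rose and 2.73% fell. DNAJC24, which takes part in making diphthamide on elongation factor 2, had 16.1, 9.98 and 13.5 CPM with TNF and 29.2, 25.4 and 26.5 with LED. As for DNAJA4, its levels were similar in the 3 LED libraries (coefficient of variation 7.12%), with replicate 6 the lowest. The log2 fold change was 1.04 ± 0.21 (edgeR adjusted p = 0.0304), and leaving out TNF replicate 14 or any 1 of the LED libraries ended the call (adjusted p up to 0.112). In those omissions the log2 fold change was 0.99 to 1.08. Without both TNF replicate 8 and LED replicate 6 the call held (log2 0.91, edgeR adjusted p = 0.0108).

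DNAJC9, a co-chaperone that pairs HSP70 with histones H3 and H4, had 51.0, 71.4 and 57.4 CPM with TNF and 34.7, 27.5 and 31.5 with LED. It was the only member called lower (59.9 ± 10.5 to 31.2 ± 3.64 CPM, SD, n = 3, log2 -0.94 ± 0.19, edgeR adjusted p = 0.0309), and the groups did not overlap. The same 4 omissions as for DNAJC24 ended that call too (adjusted p up to 0.118), with log2 fold changes from -1.01 to -0.86. Without both TNF replicate 8 and LED replicate 6 the DNAJC9 call held (log2 -0.71, edgeR adjusted p = 0.0125). FAM149B1, on the opposite strand, overlaps 24.0% of its exon length, and the sources used here do not say whether counting used strand. FAM149B1 had a log2 fold change of 0.05 (adjusted p = 0.910). The ribosome-associated DNAJC2 had 48.8, 22.3 and 51.7 against 58.2, 84.2 and 57.4 CPM without passing (log2 0.70 ± 0.31). DNAJC8 and DNAJC17 overlapped between the groups. DNAJC21, which matures the large ribosomal subunit, had 53.3, 33.2 and 50.8 against 50.2, 36.4 and 51.9 CPM (log2 0.012 ± 0.23), with TNF replicate 8 and LED replicate 6 both low.

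None of the 6 mitochondrial members was called (median -0.099). As 5.17% of all tested genes were called in either direction, no call among so few genes does not set them apart. DNAJA3, DNAJC11, DNAJC15, DNAJC19 and DNAJC30 had log2 fold changes between -0.19 and 0.18, and the scarce DNAJC28 was at -0.85 ± 0.55. Vesicle and endosome members were not called either (4 tested, median -0.12), and the same limit applies to them. DNAJC6, the clathrin-uncoating auxilin, had 4.01, 4.53 and 3.55 against 2.43, 2.14 and 2.84 CPM, lower in all 3 LED libraries without passing (log2 -0.71 ± 0.24, edgeR adjusted p = 0.124). DNAJC27 had 2.80 to 4.20 against 4.89 to 5.29 CPM (log2 0.48, adjusted p = 0.261), and the endosomal DNAJC13 ranged from 88.2 in TNF replicate 8 to 216 in TNF replicate 2, wider than all 3 LED libraries (152 to 190). DNAJC4, DNAJC22 and DNAJC25-GNG10 did not pass (DNAJC4 did, as lower, without both TNF replicate 8 and LED replicate 6, adjusted p = 0.0341). The read-through shares its exons with GNG10 and DNAJC25, so its counts are uncertain. Tissue-restricted members were at or under the detection limit and were not tested: DNAJB3 and DNAJC5G were at 0 in every library, DNAJB8 and DNAJC5B above 0 in 1 library each, and DNAJB13 had 0 to 10 units.

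**Figure D4:**
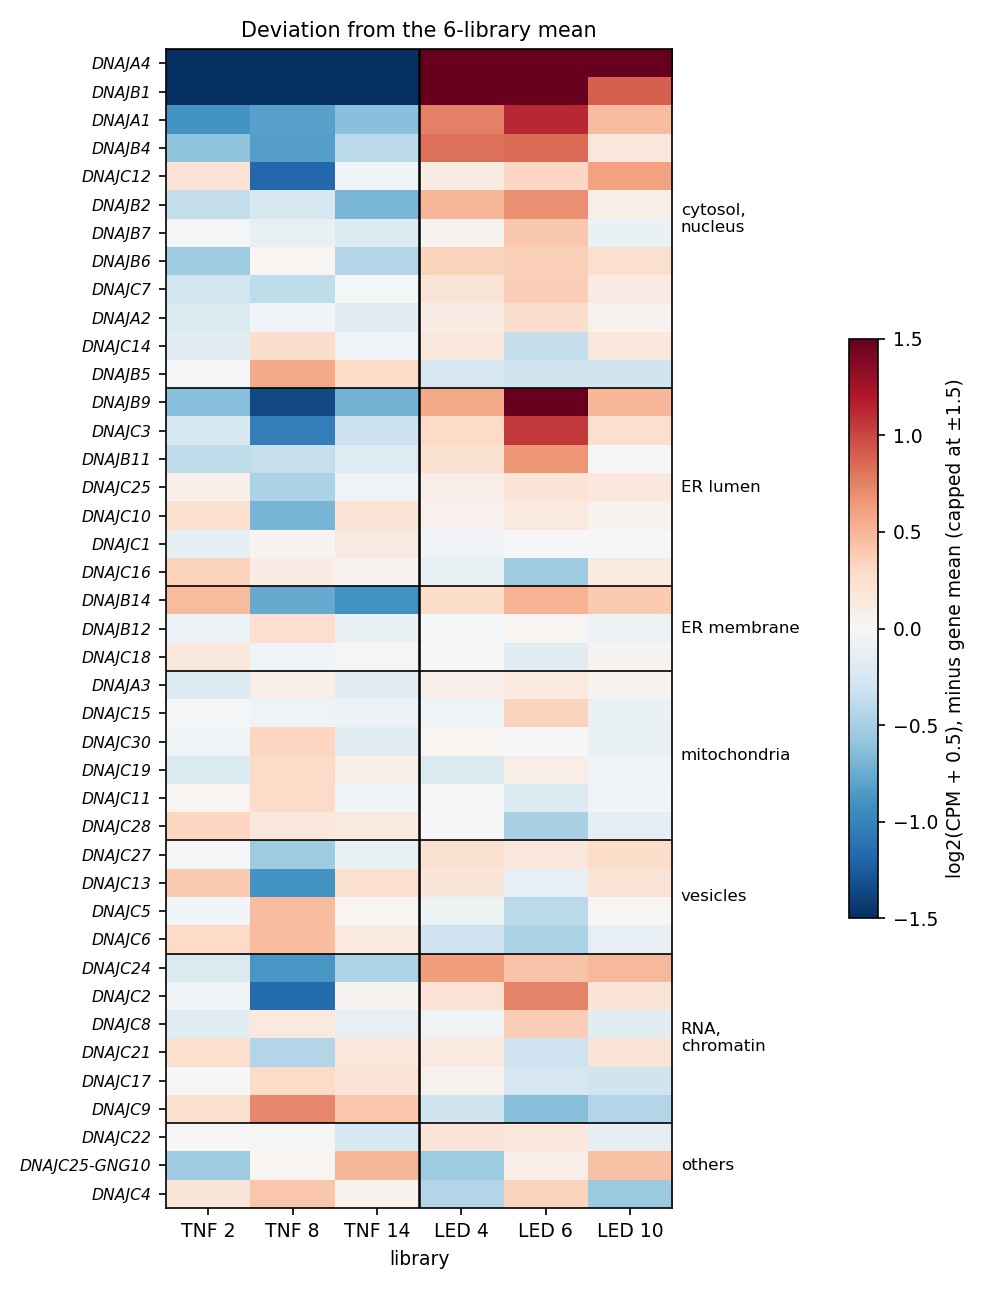
Deviation of log2(CPM + 0.5) from each gene's mean over the 6 libraries (columns) for the 41 tested DNAJ genes (rows, by place of work). The top rows of the cytosolic block are blue with TNF and red with LED, LED replicate 6 is reddest for DNAJB9 and DNAJC3, and TNF replicate 8 departs from the other TNF libraries for DNAJC2, DNAJC13 and DNAJC12.

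Levels of the members differed between libraries of a group. Among the 7 members that rose, 6 were highest in LED replicate 6 and 5 were lowest in LED replicate 10. Over all tested genes those shares were 40.8% and 33.8%. TNF replicate 8 stood below 0.75 of the mean of the other TNF libraries for 12 of the 41 tested members, a share near the 30.5% of all tested genes for which it did so. It stood above that mean divided by 0.75 for 4 members and for 2765 of the 13794 tested genes. Members below 0.75 of it included DNAJC12 (0.0497 of that mean), DNAJC13 (0.429), DNAJC2 (0.445), DNAJC10 (0.526), DNAJC3 (0.591) and DNAJB9 (0.622).

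Several genes of the HSP70 machine that J-domain proteins feed were also called. These partner lists were chosen with earlier results of these data known, and 2.44% of all tested genes were called higher. Of 10 HSP70 genes listed apart from HSPA5 and HSPA9, 4 rose (HSPA6, HSPA1A, HSPA1B and HSPA1L, log2 8.45, 5.79, 5.61 and 1.69). None of the 10 fell, and their median was 0.64. The counts of the near-identical HSPA1A and HSPA1B are uncertain in their split. The constitutive HSPA8 had 3114 to 3471 CPM with TNF and 3851 to 7619 with LED and did not pass (log2 0.72 ± 0.25, adjusted p = 0.130). Of 10 nucleotide exchange factors, which release the client that the J-domain protein has loaded, 4 rose (HSPA4L, HSPH1, BAG3 and HSPA4, log2 4.50, 4.19, 3.40 and 1.47) and none fell. Of 9 ER partners HSPA5 rose (1.70), and of 10 mitochondrial partners the chaperonins HSPD1 and HSPE1 rose (2.64 and 1.92), while HSPA9, the HSP70 that the mitochondrial J proteins serve, did not pass (log2 0.82 ± 0.23, adjusted p = 0.0753). Of 5 genes for client transfer to HSP90 or degradation, HSP90AA1, HSP90AB1 and STIP1 rose (2.05, 1.58 and 1.40). Medians of the exchange factors, ER partners, mitochondrial partners and client transfer genes were 0.15, 0.37, 0.12 and 1.40.

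The order of the LED libraries (replicate 6 highest, replicate 10 lowest) was the same for HSPA1A (2.92-fold between them), HSPA5 (2.66-fold) and DNAJB1. The J-domain genes SEC63, GAK and HSCB, which have other symbols, were not called (log2 0.48, -0.46 and 0.033). None of 7 regulators was called, HSF1 having 52.3 to 81.0 CPM with TNF and 59.6 to 70.1 with LED (log2 -0.054 ± 0.20, adjusted p = 0.903).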

How the data were processed

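Total RNA was extracted with Trizol, depleted of ribosomal RNA and made into libraries by random priming (per the labels' protocols). Per the submitters' processing notes the tools were HISAT2, StringTie, limma, DESeq2 and bcl2fastq 2.0, with no roles, and the build was mouse mm10, although the deposited symbols are human. A human build and strandedness are, in the sources used here, not given. The authors deposited estimated counts per gene as whole numbers, which entered the tests without rounding. Of values from 1 to 7, 41.8% equalled 4, so a fragment seems worth about 4 units. Each column name is the number in a sample's title.

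Of 19475 rows, the 13794 that passed filterByExpr were fitted with edgeR 4.0.16 in R 4.3.3. The fit used TMM scaling and a robust quasi-likelihood F test, two-sided (Benjamini-Hochberg over the 13794 tested genes, threshold 0.05). The standard error is the log2 fold change divided by the square root of F. Libraries of a group differed far beyond sampling noise (chi-square per degree of freedom at least 27.9). The edgeR fit alone was tested on simulated data, whose results are not used here. Alternatives were other filters, scalings and thresholds, DESeq2 1.42.0, limma-voom (limma 3.58.1), counts divided by 4 and omitted libraries. The members and lists were chosen with earlier results of these data known. Values by library are given for called members, the 4 of lowest p per class and the 2 nearest 0 per class with a mean of at least 20 CPM; others named were chosen after their values were seen. Protein sequences were not used here.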

Additional observations from a re-analysis of the deposited data

How the results depend on the processing

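No paired analysis was possible because the groups share no sample numbers. The 7 higher and 1 lower J-domain genes became 3 and 0 at a threshold of 0.01, and lay between 3 and 7 higher and between 0 and 1 lower when 1 library was left out (3 higher without TNF replicate 14 or LED replicate 6, 4 without LED replicate 4 and 5 without LED replicate 10). Leaving out both TNF replicate 8 and LED replicate 6 gave 7 higher and 2 lower. DESeq2 called 10 members higher. Over all genes, the 336 higher and 377 lower became 846 and 812 with DESeq2, 763 and 906 without both of those libraries, 53 and 17 at a threshold of 0.01 and 695 and 776 at 0.10; single omissions gave 59 to 314 higher and 21 to 423 lower. No scaling moved the median of all genes by more than 0.04. Signs turned in at least 1 alternative for 10 members near 0, none of them called, with values between -0.37 and 0.43. They were DNAJC1, DNAJC8, DNAJC10, DNAJC13, DNAJC15, DNAJC30, DNAJC25-GNG10 and 3 named by the rule: DNAJB12 (0.069 without TNF replicate 8, 0.045 without both libraries, -0.13 to 0.069 over single omissions), DNAJC14 (0.0042 with at least 1 CPM in 3 libraries, 0.12 without TNF replicate 8, 0.14 without LED replicate 6, 0.28 without both, -0.12 to 0.14 over single omissions) and DNAJC21 (-0.020 with library totals only, -0.17 without TNF replicate 8, -0.04 and -0.08 without LED replicate 4 or 10, -0.026 without both, -0.17 to 0.16 over single omissions). The cause was not tested. Among the called members DNAJA1 and DNAJA4 kept the call in all 18 alternatives. Of these, the threshold of 0.10 reused the main fit and could not end a call. DNAJA4 entered the test through its LED libraries alone, so that its kept calls support nothing. Depth limits DNAJA4 in the TNF group, DNAJB7, DNAJC12 and DNAJC28, and the 5 members not tested.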
